A study of Mus musculus with 2 samples.

Results

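Granzymes and the other genes of the cytotoxic granule were followed across lymphocytes of the mouse intestine. The 8 genes were Gzma, Gzmb, Gzmk, Prf1, Nkg7, Klrg1, Ctsw and Fasl, taken as a named list from the 31253 genes of the count tables, and all 8 had UMIs in both libraries. A UMI (unique molecular identifier) marks 1 captured RNA molecule. The intestines of 2 wild-type mice were dissociated and sequenced with droplet 3′ chemistry, as 1 library each. The butyrate library came from a mouse fed a diet with 1% butyrate. The RA library came from a mouse on standard chow, and the design text of the series names its group CIA (collagen-induced arthritis). Arthritis in the mouse fed butyrate is neither stated nor denied in the labels, so diet and disease cannot be told apart. With 1 mouse per group no difference could be tested between groups, and every interval below is an exact 95% interval for counting error only.

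Cytotoxic lymphocytes store granzymes and perforin in secretory granules and release them onto a target cell. Perforin opens the way through the membrane and granzymes, which are serine proteases, cleave proteins inside the target. Many intraepithelial lymphocytes of the gut carry such granules, and Fas ligand gives the same cells a second, granule-independent killing route.

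A barcode was kept if it had 500 UMIs or more from 250 genes or more, no more than 25% of them mitochondrial, which left 8247 butyrate and 6909 RA cells. Median depth was 5141 UMIs in the butyrate library and 4712 UMIs in the RA library. The lowest kept barcode held 2316 UMIs in the butyrate library and 501 UMIs in the RA library, and the mitochondrial limit removed 15.4% of the butyrate and 29.95% of the RA barcodes. Cells with a Cd3e UMI were divided by their receptor and coreceptor genes. The γδ T class (Trdc positive) held 126 butyrate and 108 RA cells. The CD8αβ class (Cd8b1 positive) held 275 butyrate and 108 RA cells, the CD8αα class (Cd8a without Cd8b1) 73 butyrate and 47 RA cells, and the other T class 881 butyrate and 480 RA cells. A Cd8a UMI was found in 212 of the 275 butyrate and 83 of the 108 RA CD8αβ cells, so a coreceptor UMI is often missed. The CD8αα class can thus hold CD8αβ cells without a Cd8b1 UMI, and its name stands for the gate only. The natural killer (NK) gate took cells without Cd3e that had at least 2 UMIs of Ncr1, Klrb1c and Klre1, and held 80 butyrate and 59 RA cells. These 5 classes together held 2237 of the 15156 kept cells. The libraries shared 27 barcodes, 19 of them kept and 0 of them in these 5 classes.

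The class labels were set beside marker lists. Part of the γδ, NK and pan-T sums was fixed by the gates. The γδ list holds Trdc, the NK list Ncr1, Klrb1c and Klre1, and the pan-T list Cd3e. The γδ receptor genes summed to 1331 CPM in butyrate and 1437 CPM in RA γδ T cells (CPM, the count scaled to 1000000 UMIs of the class) and stayed between 20.3 and 193 CPM in the remaining T cell classes. Trdc itself gave 809 CPM in butyrate and 887 CPM in RA γδ T cells and was 0 in the remaining T cell classes by definition. NK markers summed to 5609 CPM in butyrate and 5103 CPM in RA NK-gate cells, with Klra8 at 0 in the butyrate cells. Of this sum, Xcl1 gave 3213.5 CPM in butyrate and 2902 CPM in RA, and Il2rb 1171 CPM in butyrate and 1034 CPM in RA. Eomes was found in 19 of 80 butyrate and 13 of 59 RA cells. Pan-T markers were at 632 CPM in butyrate and 620 CPM in RA NK-gate cells, against 3164 to 4454 CPM in the T cell classes. Genes used by other innate lymphoid cells were present in the gate as well, with Kit in 60 of 80 butyrate and 42 of 59 RA cells and Il22 at 293 CPM in 5 butyrate cells and 33.8 CPM in 1 RA cell. Fibroblast markers also differed. They summed to 182 CPM in butyrate and 1422 CPM in RA γδ T cells, 74.8 CPM in butyrate and 312 CPM in RA CD8αβ cells, and 4.398 CPM in butyrate and 747 CPM in RA CD8αα cells. They summed to 45.4 CPM in butyrate and 276 CPM in RA other T cells and to 1523 CPM in butyrate and 1036 CPM in RA NK-gate cells. Epithelial markers summed to 678 CPM in butyrate and 81.1 CPM in RA NK-gate cells and to 262 CPM in butyrate and 689.5 CPM in RA other T cells. Plasma cell markers summed to 174 CPM in butyrate and 681 CPM in RA γδ T cells, 311 CPM in butyrate and 628 CPM in RA other T cells, and 323 CPM in butyrate and 76.6 CPM in RA NK-gate cells. Macrophage markers summed to 10.3 CPM in butyrate and 195 CPM in RA CD8αα cells, and B cell markers to 110.01 CPM in butyrate and 13.5 CPM in RA NK-gate cells. The part of such RNA in the results was not tested. Cells with at least 2 UMIs of another lineage made up 12.7% to 33.3% of the classes. Without these cells the summed ratio of the 8 genes, given below for all cells, was 0.423 in γδ T, 0.332 in CD8αβ, 0.370 in CD8αα, 1.25 in other T and 1.38 in NK-gate cells.

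Promoter sequences are shown because most of the 8 genes were high in the same cell classes. Windows of 250 bases before to 50 after the start were found for 6 of the 8 genes in RefSeq tables of build GRCm38.p6; Klrg1 and Ctsw were not among them. They lie at chr13:113100932-113101231 (Gzma, minus strand), chr14:56262285-56262584 (Gzmb, minus), chr13:113180916-113181215 (Gzmk, minus), chr10:61297586-61297885 (Prf1, plus), chr7:43436888-43437187 (Nkg7, plus) and chr1:161788446-161788745 (Fasl, minus). Capitals mark matches on either strand to a RUNX word (TGTGGT), a T-box word (TCACAC) or an AP-1 word (TGANTCA), 3 factor families that act in cytotoxic lymphocytes. The matches did not overlap each other. Starts follow RefSeq, and for Gzmb, Gzmk, Nkg7 and Prf1 they differ from the gene ends of GENCODE given below. The difference is by far the largest for Gzmk, whose window lies inside the GENCODE span that ends at 113225908.
Gzma: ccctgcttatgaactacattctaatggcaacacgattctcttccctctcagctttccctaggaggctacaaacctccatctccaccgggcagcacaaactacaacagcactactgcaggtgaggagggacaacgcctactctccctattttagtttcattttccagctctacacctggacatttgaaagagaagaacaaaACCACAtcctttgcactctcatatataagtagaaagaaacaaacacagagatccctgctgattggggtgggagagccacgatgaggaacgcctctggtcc
Gzmb: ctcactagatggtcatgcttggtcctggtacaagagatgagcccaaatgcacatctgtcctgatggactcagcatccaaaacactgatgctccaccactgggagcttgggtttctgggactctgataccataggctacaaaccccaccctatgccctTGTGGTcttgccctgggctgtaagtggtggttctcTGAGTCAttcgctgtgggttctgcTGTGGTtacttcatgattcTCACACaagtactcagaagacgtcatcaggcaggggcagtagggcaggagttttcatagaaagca
Gzmk: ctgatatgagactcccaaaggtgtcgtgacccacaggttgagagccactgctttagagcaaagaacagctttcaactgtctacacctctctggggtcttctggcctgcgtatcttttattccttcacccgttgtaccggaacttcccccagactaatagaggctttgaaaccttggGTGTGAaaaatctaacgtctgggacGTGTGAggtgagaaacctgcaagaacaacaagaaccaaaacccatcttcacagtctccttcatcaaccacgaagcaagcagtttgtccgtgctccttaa
Prf1: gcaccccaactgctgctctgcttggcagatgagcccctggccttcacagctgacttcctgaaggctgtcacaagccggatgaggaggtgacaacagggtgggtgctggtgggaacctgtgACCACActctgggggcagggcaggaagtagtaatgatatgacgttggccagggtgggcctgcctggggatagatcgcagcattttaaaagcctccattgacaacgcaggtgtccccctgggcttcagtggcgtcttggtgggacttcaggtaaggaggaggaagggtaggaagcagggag
Nkg7: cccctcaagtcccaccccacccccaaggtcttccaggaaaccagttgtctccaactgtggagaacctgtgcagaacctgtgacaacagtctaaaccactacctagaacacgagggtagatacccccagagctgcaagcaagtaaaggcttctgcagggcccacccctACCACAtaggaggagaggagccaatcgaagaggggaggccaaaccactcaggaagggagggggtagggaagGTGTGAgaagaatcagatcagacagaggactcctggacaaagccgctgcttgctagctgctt
Fasl: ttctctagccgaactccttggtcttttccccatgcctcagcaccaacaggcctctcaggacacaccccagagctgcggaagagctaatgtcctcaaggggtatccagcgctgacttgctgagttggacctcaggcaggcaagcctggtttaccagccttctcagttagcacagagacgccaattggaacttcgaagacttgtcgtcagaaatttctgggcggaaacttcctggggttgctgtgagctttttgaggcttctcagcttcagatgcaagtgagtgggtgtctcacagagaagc
The RUNX word was found in the windows of Gzma, Gzmb, Prf1 and Nkg7, and it occurs in 16.8% of the 32851 mouse promoter windows. Gzma holds it 50 bases before its start, Prf1 130 bases and Nkg7 83 bases before, and Gzmb holds it in 2 places, 93 and 34 bases before. The T-box word was found once in Gzmb and Nkg7 and in 2 places in Gzmk, against 14.5% of all windows. The AP-1 word was found in Gzmb alone of the 6, 58 bases before the start, against 7.81% of all windows. The Fasl window held none of these words. A match is a run of letters and says nothing of binding in these cells.

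As a sum, the 8 genes were lower in butyrate than in RA cells in the γδ and both CD8 classes and higher in the other T and NK-gate cells. The sum was 1207 CPM in butyrate and 2540 CPM in RA γδ T cells, a ratio of 0.475 (interval 0.444 to 0.509). In CD8αβ cells it was 2319 CPM in butyrate and 5983 CPM in RA cells, a ratio of 0.388 (0.374 to 0.401). In CD8αα cells it was 1790 CPM in butyrate and 4352 CPM in RA cells, a ratio of 0.411 (0.382 to 0.443), which was 0.822 without the 10 cells per library with most UMIs of the 8 genes. In contrast, other T cells had 369.7 CPM in butyrate and 261 CPM in RA cells, a ratio of 1.42 (1.31 to 1.53), and NK-gate cells had 1714 CPM in butyrate and 1352 CPM in RA cells, a ratio of 1.27 (1.14 to 1.41). Without Gzma and Gzmb in the sum the ratio was 0.868 (0.774 to 0.973) in γδ T, 0.644 (0.603 to 0.687) in CD8αβ, 0.948 (0.828 to 1.09) in CD8αα, 1.05 (0.936 to 1.18) in other T and 1.04 (0.922 to 1.18) in NK-gate cells.

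**Figure D1:**
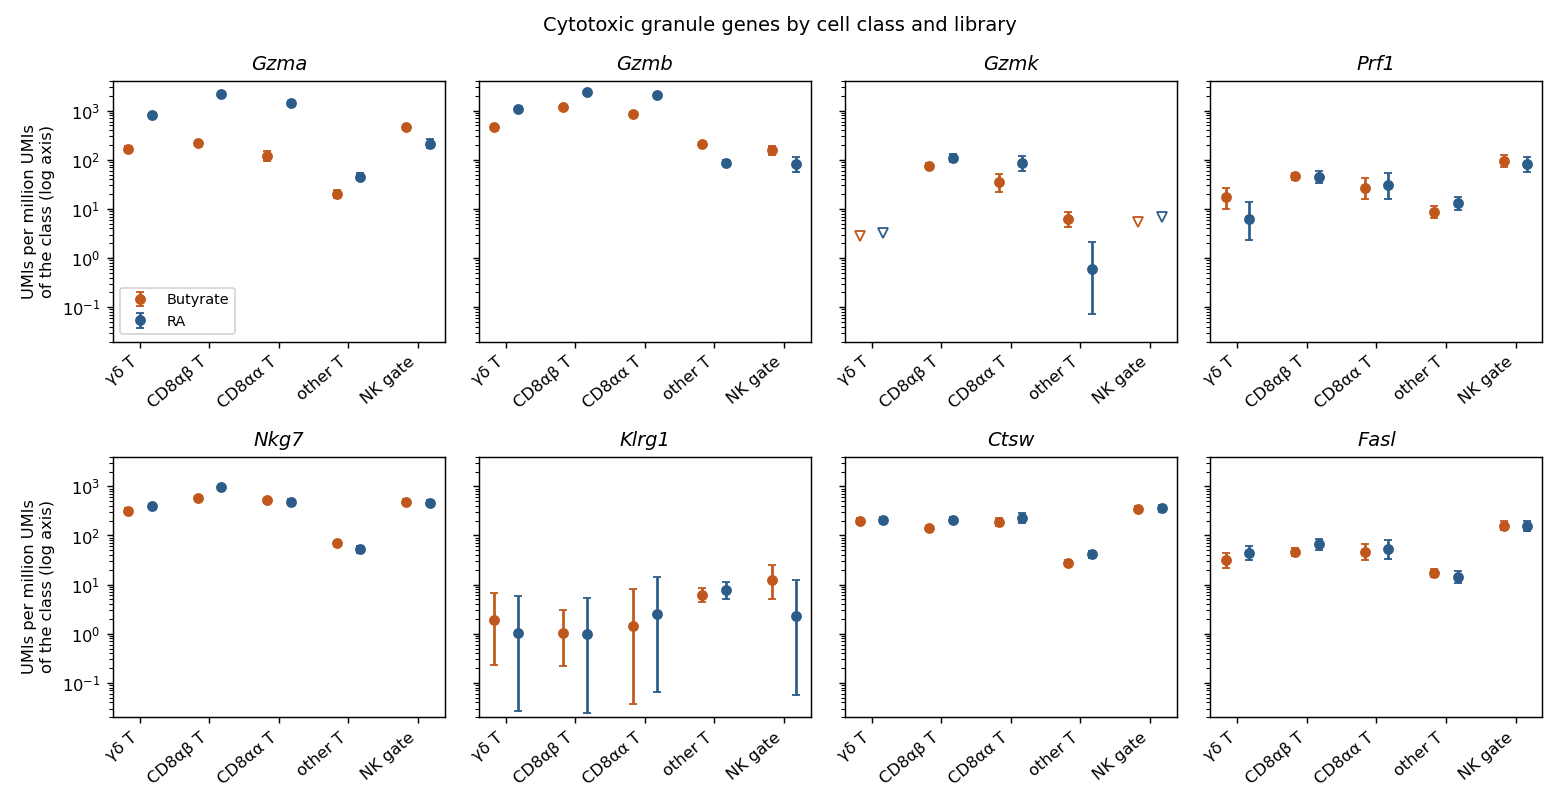
Level of each gene in CPM of the class (log axis) by cell class, with the butyrate library at the left and the RA library at the right of each pair; bars are exact Poisson 95% intervals and open triangles mark the level that 3 UMIs would give where none was found. Gzma sits lower in butyrate than in RA cells in all 4 T cell classes (219 CPM in butyrate and 2208 CPM in RA CD8αβ cells; the other T value turns round in 2 alternatives) and higher in the NK gate (457.8 CPM in butyrate and 212 CPM in RA), whereas Prf1, Ctsw and Fasl lie close together in the NK gate.

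Single genes were counted as apart between libraries when their levels differed at least 1.5-fold and they had at least 20 UMIs over both libraries. In γδ T cells, 6 of the 8 genes reached 20 UMIs, and 1 (Prf1, which was not 1.5-fold higher without cells with markers of another lineage) was higher and 2 (Gzma and Gzmb) lower in butyrate, against 9.59% higher and 11.9% lower of the 8496 genes measured there. In CD8αβ cells 7 of the 8 reached 20 UMIs, with 0 higher and 4 lower (Gzma, Gzmb, Gzmk and Nkg7), against 7.43% higher and 13.2% lower of 9472 genes. In CD8αα cells 7 of the 8 reached 20 UMIs, with 0 higher and 3 lower (Gzma, Gzmb and Gzmk), against 13% higher and 14.2% lower of 6328 genes. In other T cells all 8 reached it, with 2 higher (Gzmb and Gzmk) and 2 lower (Gzma and Prf1), against 5.42% higher and 15.7% lower of 12057 genes. The Prf1 ratio there was 0.659 with an interval that includes 1 (0.434 to 1.007). The Gzma ratio there turned round in some alternatives, up to 3.42. In NK-gate cells 6 of the 8 reached it, with 2 higher (Gzma and Gzmb) and 0 lower, against 12.1% higher and 12.9% lower of 6146 genes. The median log2 ratio of the genes measured was -0.39 in γδ T, -0.60 in CD8αβ, -0.26 in CD8αα, -0.04 in other T and 0.16 in NK-gate cells, where all genes measured had medians from -0.06 to 0.02.

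**Figure D2:**
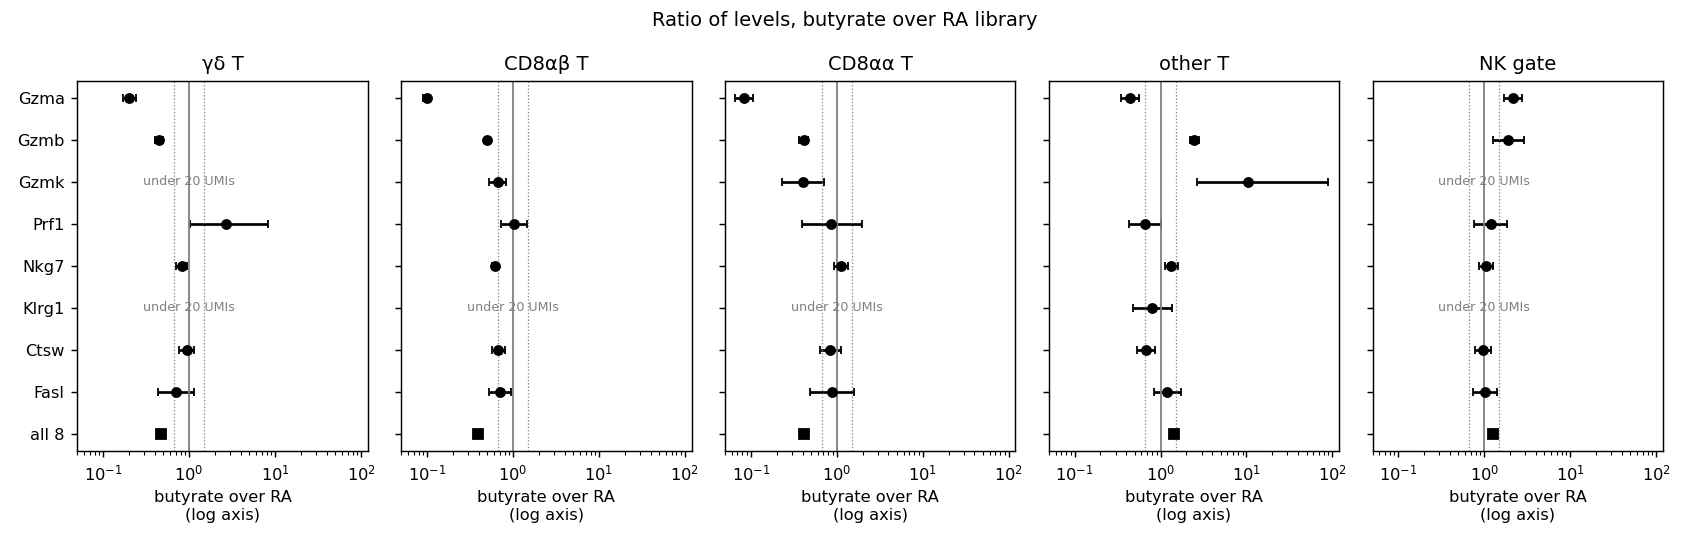
Ratio of the butyrate to the RA level (log axis) for each gene and for the sum of all 8, in the 5 cell classes; bars are exact conditional 95% intervals, the solid line marks a ratio of 1 and the dotted lines a 1.5-fold difference. The Gzma point moves from 0.0837 in CD8αα cells to 2.16 in the NK gate, and the points of Prf1, Nkg7, Ctsw and Fasl in the NK gate all have intervals that include 1.

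Gzma, a granzyme with trypsin-like specificity, had the lowest butyrate over RA ratio of the 8 genes in the γδ and both CD8 classes. It lies at chr13:113093825-113100981 on the minus strand (GRCm38, GENCODE M21, 5 exons). In CD8αβ cells it had 627 UMIs (219 CPM, interval 202 to 237) in the butyrate library and 2254 UMIs (2208 CPM, 2118 to 2301) in the RA library. The butyrate level was 0.0993 of the RA level (0.0907 to 0.109), and only 42 of the 9472 genes measured in that class, Gzma included, had a ratio as low or lower. In CD8αα cells it stood at 120 CPM in butyrate and 1436 CPM in RA cells, a ratio of 0.0837 (0.0656 to 0.106). In γδ T cells it stood at 166 CPM in butyrate and 824 CPM in RA cells, a ratio of 0.202 (0.170 to 0.238). The NK gate ran the other way, with 258 UMIs (457.8 CPM) in butyrate and 94 UMIs (212 CPM) in RA cells and a ratio of 2.16 (1.70 to 2.77). Without the 10 cells per library with most UMIs of the 8 genes the ratio was 0.190 in CD8αβ and 0.325 in CD8αα cells. These were 10 of 275 butyrate and 10 of 108 RA CD8αβ cells, and 10 of 73 butyrate and 10 of 47 RA CD8αα cells, a larger part of the RA class in both. In cells thinned to 1000 UMIs the γδ ratio was 0.0989, and with stricter gates the NK-gate ratio was 3.82. The difference in direction between classes was not tested, since each class is 1 sample per group.

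The order of the classes for Gzma therefore differed between the libraries. In the butyrate library the NK gate came first, 2.09-fold above CD8αβ cells (1.80 to 2.42). After these, γδ T, CD8αα and other T cells followed, each step larger than counting error. The step from γδ T to CD8αα cells was 1.38-fold (1.06 to 1.82) and rested on few cells. Only 10 butyrate γδ T cells had a Gzma UMI, and 1 of them held 68 of the 175 UMIs. In the RA library CD8αβ cells came first, 1.54-fold above CD8αα cells (1.40 to 1.69), then γδ T cells, and the NK gate was in 4th place. Other T cells were last in both, at 20.3 CPM in butyrate and 45.6 CPM in RA cells (ratio 0.444, 0.348 to 0.566). That value rested on few cells: 2 cells in each library held 85 of 125 butyrate and 136 of 154 RA UMIs, and without the 10 cells per library with most UMIs of the 8 genes the ratio was 1.67, the opposite direction; with a mitochondrial limit of 10% it was 3.42.

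The low Gzma level of butyrate CD8αβ cells went with fewer positive cells and with fewer UMIs in each. Of CD8αβ cells, 74 of 275 (26.9%) in the butyrate library and 50 of 108 (46.3%) in the RA library had a Gzma UMI. With every cell thinned to 1000 UMIs these shares were 12.7% (9.03% to 17.3%) in butyrate and 35.2% (26.2% to 44.97%) in RA cells. Positive CD8αβ cells had a median of 5 Gzma UMIs and at most 38 in the butyrate library, against a median of 22 and at most 245 in the RA library. In γδ T cells 10 of 126 butyrate and 16 of 108 RA cells were positive, with medians of 9 UMIs in positive butyrate and 31.5 UMIs in positive RA cells. Much of the γδ signal lay in cells with markers of another lineage: without those cells 9 of the 175 butyrate UMIs and 376 of the 780 RA UMIs remained, a ratio of 0.0201. Epithelial markers were met by 24 of the 38 such butyrate and 27 of the 36 such RA γδ T cells. Among all γδ T cells Epcam was found in 47 butyrate and 45 RA cells, but Krt8 in only 12 butyrate and 15 RA cells. Whether the cells left out were doublets was not tested. B cells, taken as cells that do not express the gene, gave the background: 0 of 4058 butyrate B cells had a Gzma UMI, which allows a share of up to 0.0739%, and 0.289% of 2768 RA B cells had one, at median depths of 4639 UMIs in butyrate and 4184 UMIs in RA B cells against 8643 UMIs in butyrate and 7693 UMIs in RA CD8αβ cells.

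Gzmb, the aspartate-cleaving granzyme that activates caspases, was lower in butyrate cells in the same 3 classes, though by less than Gzma. The gene lies at chr14:56258838-56262260 on the minus strand with 5 exons. In CD8αβ cells it had 3451 UMIs (1207 CPM) in butyrate and 2437 UMIs (2387 CPM) in RA cells, a ratio of 0.505 (0.480 to 0.533). In CD8αα cells it stood at 837 CPM in butyrate and 2038 CPM in RA cells (0.411, 0.368 to 0.458), and in γδ T cells at 474 CPM in butyrate and 1064 CPM in RA cells (0.446, 0.400 to 0.497). Without the 10 top cells per library the ratio was 0.763 in CD8αβ and 0.804 in CD8αα cells, with the same unequal parts of the classes left out. In other T cells it was higher in butyrate, with 213 CPM in butyrate and 86.2 CPM in RA cells (2.48, 2.18 to 2.82), and likewise in the NK gate, with 154 CPM in butyrate and 81.1 CPM in RA cells (1.90, 1.28 to 2.89). The other T ratio was 1.63 with equal weight per cell, and thinned NK-gate cells had 17 UMIs in butyrate and 3 UMIs in RA. In the NK gate the ratio was 2.94 with stricter gates and 3.56 without the 10 top cells. The order CD8αβ, CD8αα, γδ T was the same in both libraries, with each step beyond counting error. NK-gate and other T cells were lowest, and in the RA library these last classes did not differ beyond counting error (1.06, 0.750 to 1.55).

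Shares of Gzmb-positive cells moved less than levels in CD8αβ and γδ T cells. This did not hold in the NK gate, where thinned shares were 10% (4.42% to 18.8%) in butyrate and 5.08% (1.06% to 14.1%) in RA cells. After thinning, 35.6% (29.98% to 41.6%) of butyrate CD8αβ cells and 54 of 108 RA CD8αβ cells (40.2% to 59.8%) had a UMI, and before thinning 50.9% of butyrate and 71.3% of RA cells had one. In γδ T cells the thinned shares were 17.5% (11.3% to 25.2%) in butyrate and 19.4% (12.5% to 28.2%) in RA cells, with intervals that overlap. In B cells 0.173% of butyrate and 0.397% of RA cells had a Gzmb UMI before thinning.

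Gzma and Gzmb were read together in single cells. Of the Gzma-positive CD8αβ cells, 72 of 74 in the butyrate library and 50 of 50 in the RA library also had Gzmb. Cells with Gzmb alone made up 24.7% of butyrate and 25% of RA CD8αβ cells, while cells with both made up 26.2% of butyrate (21.1% to 31.8%) and 46.3% of RA cells (36.7% to 56.2%). After thinning, Gzmb alone was in 25.5% of butyrate and 20.4% of RA cells, and both were in 10.2% of butyrate and 29.6% of RA cells. Within the double-positive cells the median Gzmb count was 19 UMIs in butyrate and 23.5 UMIs in RA cells, but the median Gzma count was 5 UMIs in butyrate and 22 UMIs in RA cells. Summed over these cells, there were 0.288 Gzma UMIs per Gzmb UMI in the butyrate library and 1.03 in the RA library. Cells with more Gzma than Gzmb numbered 10 of 72 in butyrate and 26 of 50 in RA. The same shift was seen in CD8αα cells, with 0.181 Gzma UMIs per Gzmb UMI in 15 butyrate cells and 0.895 in 15 RA cells, and in γδ T cells, with 0.609 in 8 butyrate cells and 1.10 in 15 RA cells.

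**Figure D3:**
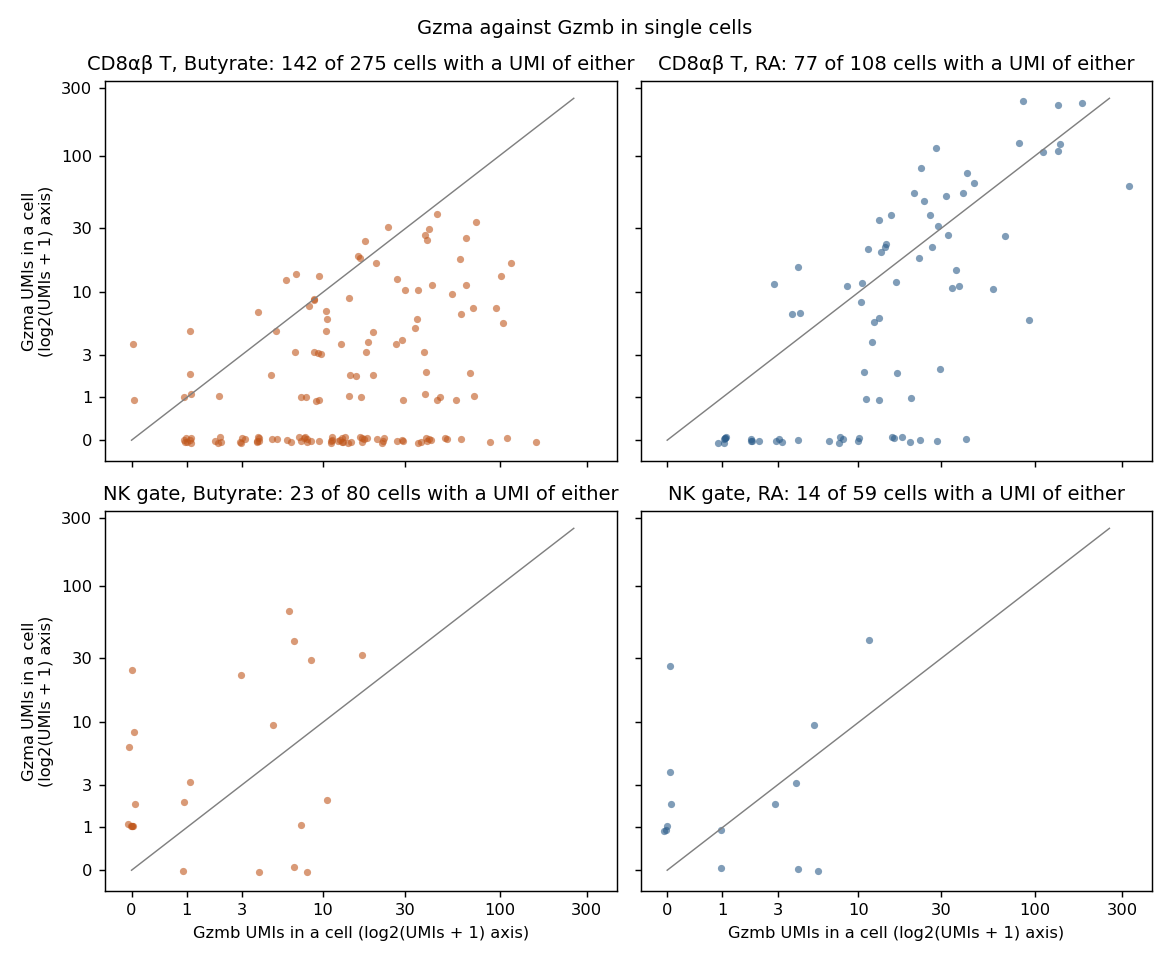
Gzma UMIs (vertical) against Gzmb UMIs (horizontal) in each cell with a UMI of either gene, on log2(UMIs + 1) axes with points jittered slightly, for CD8αβ cells (top) and NK-gate cells (bottom), butyrate at the left and RA at the right; the line marks equal numbers. RA CD8αβ cells lie about the line (1.03 Gzma UMIs per Gzmb UMI in double-positive cells), butyrate CD8αβ cells mostly lie below it (0.288), and NK-gate cells include 9 butyrate and 6 RA cells with Gzma alone.

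In NK-gate cells Gzma also occurred alone. Gzma without Gzmb occurred in 9 of 80 butyrate and 6 of 59 RA cells there, but in at most 2 cells of any library in the γδ and CD8 classes. Summed over double-positive NK-gate cells there were 3.16 Gzma UMIs per Gzmb UMI in 10 butyrate cells and 2.32 in 5 RA cells. By cell, the median was 2.50 in butyrate and 1.00 in RA, and Gzma exceeded Gzmb in 8 of 10 butyrate and 2 of 5 RA cells. The RA sum rested on 1 cell with 42 Gzma and 12 Gzmb UMIs. Gzma was held by few cells of the gate, with 19 positive cells in butyrate and 11 in RA, of which 7 butyrate and 3 RA cells had 10 or more UMIs and together held 229 of 258 butyrate and 79 of 94 RA UMIs.

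**Figure D4:**
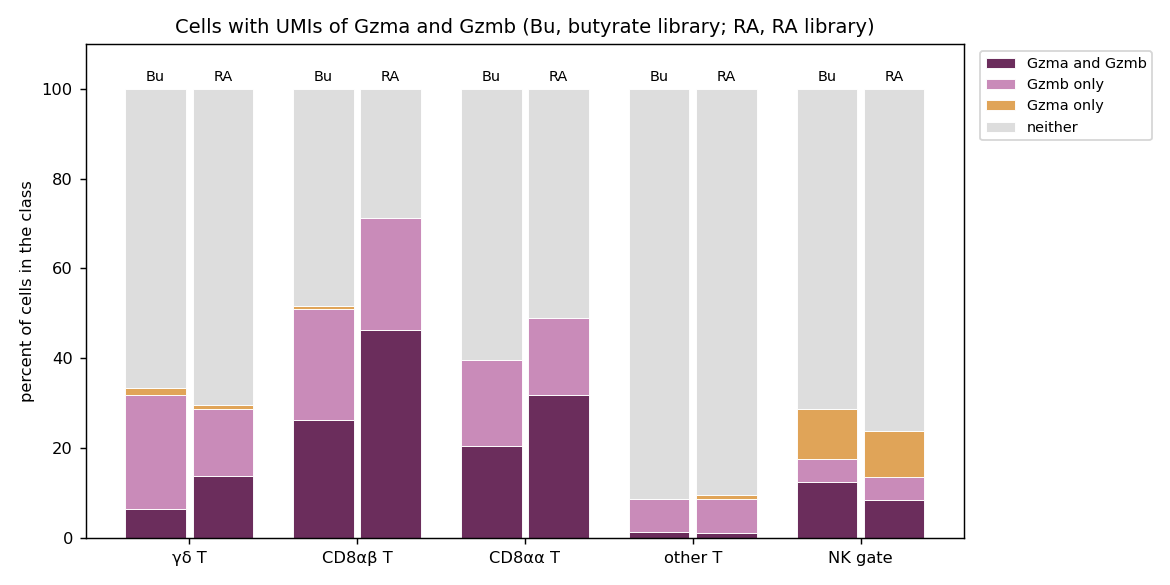
Percent of the cells of each class (vertical) with UMIs of both Gzma and Gzmb, of Gzmb alone, of Gzma alone or of neither; the left bar of each pair (Bu) is the butyrate and the right bar the RA library. Bars show cells before thinning. The band with both genes is 26.2% of butyrate and 46.3% of RA CD8αβ cells while the band with Gzmb alone is 24.7% of butyrate and 25% of RA cells. Gzma alone is seen mainly in the NK gate (11.3% of butyrate and 10.2% of RA cells). After thinning it was in 3.75% of butyrate and 5.08% of RA NK-gate cells, and in 2.55% of butyrate and 5.56% of RA CD8αβ cells.

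Gzmk, a granzyme of memory-type T cells, was highest in T cells with CD8 genes. Its locus lies at chr13:113171608-113225908 on the minus strand. It had 0 UMIs in γδ T cells and in the NK gate of both libraries, which allows a share of cells with a UMI of up to 2.38% in butyrate and 2.78% in RA γδ T cells and up to 3.75% in butyrate and 5.08% in RA NK-gate cells. In CD8αβ cells it had 210 UMIs (73.4 CPM) in butyrate and 113 UMIs (111 CPM) in RA cells, a ratio of 0.663 (0.525 to 0.841). In CD8αα cells it had 24 UMIs (35.2 CPM) in butyrate and 34 UMIs (87.0 CPM) in RA cells, a ratio of 0.404 (0.229 to 0.702), which was 0.193 without the 10 top cells; thinning left 3 UMIs in butyrate and 2 UMIs in RA cells. Other T cells had 38 UMIs in 12 of 881 butyrate cells and 2 UMIs in 2 of 480 RA cells, a ratio of 10.4 (2.69 to 89.0), and 15 of the 38 came from 1 cell. Thinning left 4 UMIs in butyrate and 1 UMI in RA cells, a mitochondrial limit of 10% left 38 UMIs in butyrate and 1 UMI in RA, and leaving out cells with markers of another lineage left 37 UMIs in butyrate and 1 UMI in RA. Nearly all Gzmk-positive CD8αβ cells carried Gzmb (56 of 60 in butyrate, 31 of 32 in RA) and every one carried Nkg7 (60 of 60 in butyrate, 32 of 32 in RA). Of Gzma-positive CD8αβ cells, 58.1% in butyrate and 48.0% in RA had Gzmk, against 8.46% of butyrate and 13.8% of RA cells without Gzma.

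Prf1, which encodes perforin, had ratios nearer to 1 than the granzymes in both CD8 classes, with wide intervals. Its locus lies at chr10:61297833-61304680 on the plus strand. It was at 46.2 CPM in butyrate and 45.1 CPM in RA CD8αβ cells, a ratio of 1.02 (0.727 to 1.47), in the class where Gzma differed 10.1-fold, but in cells thinned to 1000 UMIs, where 5 UMIs in butyrate and 8 UMIs in RA cells were left, the ratio was 0.245. In CD8αα cells it was at 26.4 CPM in butyrate and 30.7 CPM in RA cells (0.859, 0.391 to 1.96). γδ T cells had 18 UMIs in butyrate and 6 UMIs in RA cells, a ratio of 2.69 (1.02 to 8.29) on small counts. Without cells with markers of another lineage 7 butyrate and 5 RA UMIs were left and the ratio was 1.17. The NK gate had the highest level in both libraries, 95.8 CPM in butyrate and 81.1 CPM in RA cells (1.18, 0.761 to 1.85; 2.03 in thinned cells on 11 butyrate and 4 RA UMIs), above CD8αβ cells by 2.08-fold (1.48 to 2.87) in butyrate and 1.80-fold (1.13 to 2.85) in RA. In butyrate the order then ran CD8αβ, CD8αα, γδ T and other T, and CD8αα did not differ from γδ T cells beyond counting error; in RA CD8αβ did not differ from CD8αα cells, nor other T from γδ T cells, which were last. Prf1 was sparse, with at most 10 UMIs in any of these cells, and 46 UMIs in 40 of 4058 butyrate B cells and 21 UMIs in 21 of 2768 RA B cells set a background of 1.90 CPM in butyrate and 1.57 CPM in RA.

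Nkg7, a granule membrane protein needed for degranulation, was found in most cells of the γδ, CD8 and NK-gate classes. It lies at chr7:43437073-43438249 on the plus strand. It was at 588 CPM in butyrate and 960 CPM in RA CD8αβ cells, a ratio of 0.612 (0.566 to 0.663). In γδ T cells it was at 322 CPM in butyrate and 393 CPM in RA cells (0.819, 0.704 to 0.951; 0.514 in thinned cells on 36 butyrate and 60 RA UMIs), in CD8αα cells at 532 CPM in butyrate and 476 CPM in RA cells (1.12, 0.934 to 1.34) and in the NK gate at 490 CPM in butyrate and 464 CPM in RA cells (1.06, 0.878 to 1.27). Other T cells had 70.0 CPM in butyrate and 52.4 CPM in RA cells (1.34, 1.12 to 1.60), a ratio of 0.984 when cells were averaged with equal weight. CD8αβ cells had the highest level in both libraries, though in butyrate they did not differ beyond counting error from CD8αα cells (1.10, 0.985 to 1.24). A UMI was found in 73.8% of butyrate and 83.1% of RA NK-gate cells, in 69.5% of butyrate and 77.8% of RA CD8αβ cells, and in 0.0739% of butyrate and 0.145% of RA B cells.

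Ctsw, which encodes cathepsin W, a cysteine protease of cytotoxic cells, was highest in the NK gate, at 346 CPM in butyrate and 356 CPM in RA cells (0.972, 0.784 to 1.21). The gene lies at chr19:5465043-5468507 on the minus strand. γδ T cells had 195 CPM in butyrate and 208 CPM in RA cells (0.935, 0.765 to 1.14), and CD8αα cells had 191 CPM in butyrate and 228 CPM in RA cells (0.836, 0.634 to 1.11; 0.523 in thinned cells on 13 butyrate and 16 RA UMIs). CD8αβ cells had 139 CPM in butyrate and 206 CPM in RA cells, a ratio of 0.675 (0.569 to 0.802), and other T cells had 27.9 CPM in butyrate and 41.2 CPM in RA cells, a ratio of 0.677 (0.539 to 0.853). The intervals of the ratio thus include 1 in the NK gate, γδ T and CD8αα cells and exclude it in CD8αβ and other T cells. In the RA library the steps from CD8αα to γδ T and from γδ T to CD8αβ cells were within counting error, and in butyrate the step from γδ T to CD8αα cells was.

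Fasl, the ligand that triggers the Fas death receptor, had its highest level in the NK gate, at 158 CPM in butyrate and 155 CPM in RA cells (1.02, 0.733 to 1.41). Its locus is at chr1:161780689-161788495 on the minus strand. The NK-gate level was 3.37-fold (2.22 to 5.21) above the next class in butyrate and 2.37-fold (1.67 to 3.37) above it in RA. In thinned cells, with 12 UMIs in butyrate and 15 UMIs in RA, the ratio in the NK gate was 0.590. CD8αβ cells had 46.2 CPM in butyrate and 65.6 CPM in RA cells (0.703, 0.520 to 0.958), with an interval that excludes 1, and the remaining classes had ratios of 0.706 in γδ T, 0.873 in CD8αα and 1.20 in other T cells with intervals that include 1. The CD8αα ratio was 1.35 without cells with markers of another lineage. A Fasl UMI was found in 46 of 80 butyrate and 33 of 59 RA NK-gate cells. In CD8αβ cells it went with Gzmb: 71 of 77 Fasl-positive butyrate cells and 34 of 35 RA cells had Gzmb, against 34.8% of butyrate and 58.9% of RA cells without Fasl.

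Klrg1, an inhibitory receptor used as a marker of short-lived effector cells, stood apart from the other 7 genes. The gene lies at chr6:122270596-122282882 on the minus strand. It had between 1 and 3 UMIs per library in the γδ, CD8αβ and CD8αα classes. The NK gate had 7 UMIs in 6 butyrate cells and 1 UMI in 1 RA cell, a ratio of 5.51 with an interval from 0.708 to 248. Other T cells had 38 UMIs (6.16 CPM) in butyrate and 26 UMIs (7.70 CPM) in RA cells, a ratio of 0.800 (0.473 to 1.37). Most of these were in cells with Foxp3, the regulatory T cell factor: 22 UMIs in 10 of 81 butyrate cells and 21 UMIs in 11 of 63 RA cells, or 44.0 CPM in butyrate and 50.3 CPM in RA cells. Klrg1 was also found outside the T and NK classes, in cells gated by markers of group 2 innate lymphoid cells, with 12 UMIs in 6 of 23 butyrate cells (90.8 CPM) and 14 UMIs in 10 of 18 RA cells (132 CPM).

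The higher Gzmb of butyrate other T cells was looked at by subdivision. In the whole other T class, mast cell markers summed to 365 CPM in butyrate and 92.4 CPM in RA cells. Of these, Mcpt1 was at 142 CPM in 19 butyrate cells and 9.77 CPM in 5 RA cells. Mcpt2 was at 187 CPM in 18 butyrate cells and 21.6 CPM in 7 RA cells. The part of such RNA in the Gzmb difference was not tested. Cells with Cd4 and without Foxp3 had 714 Gzmb UMIs in 40 of 478 butyrate cells and 43 UMIs in 12 of 207 RA cells, 204 CPM in butyrate and 27.8 CPM in RA cells and a ratio of 7.34 (5.39 to 10.2). The thinned shares there were 6.28% in butyrate and 1.93% in RA cells. Foxp3-positive cells had 218 UMIs in 21 of 81 butyrate cells (436 CPM) and 119 UMIs in 12 of 63 RA cells (285 CPM), a ratio of 1.53 (1.22 to 1.93). Cells with neither had 384 UMIs in 15 of 322 butyrate cells (177 CPM) and 129 UMIs in 18 of 210 RA cells (91.2 CPM), a ratio of 1.94 (1.58 to 2.39), and 1 butyrate cell held 175 of these UMIs. Other granule genes were sparse in Foxp3-positive cells, where Prf1 had 3 UMIs in butyrate and 2 in RA, Fasl 0 in butyrate and 1 in RA, and Gzmk 0 in both, while Nkg7 had 22 UMIs in 4 butyrate cells and 1 UMI in RA. Nkg7 in the Cd4-positive, Foxp3-negative cells was at 77.5 CPM in butyrate and 30.4 CPM in RA cells (2.55, 1.86 to 3.55), while Prf1 was at 7.15 CPM in butyrate and 12.9 CPM in RA cells (0.552, 0.295 to 1.05). Gzma had 81 UMIs in 6 butyrate cells of this subdivision, 63 of them in 1 cell, and 1 UMI in the RA cells.

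**Figure D5:**
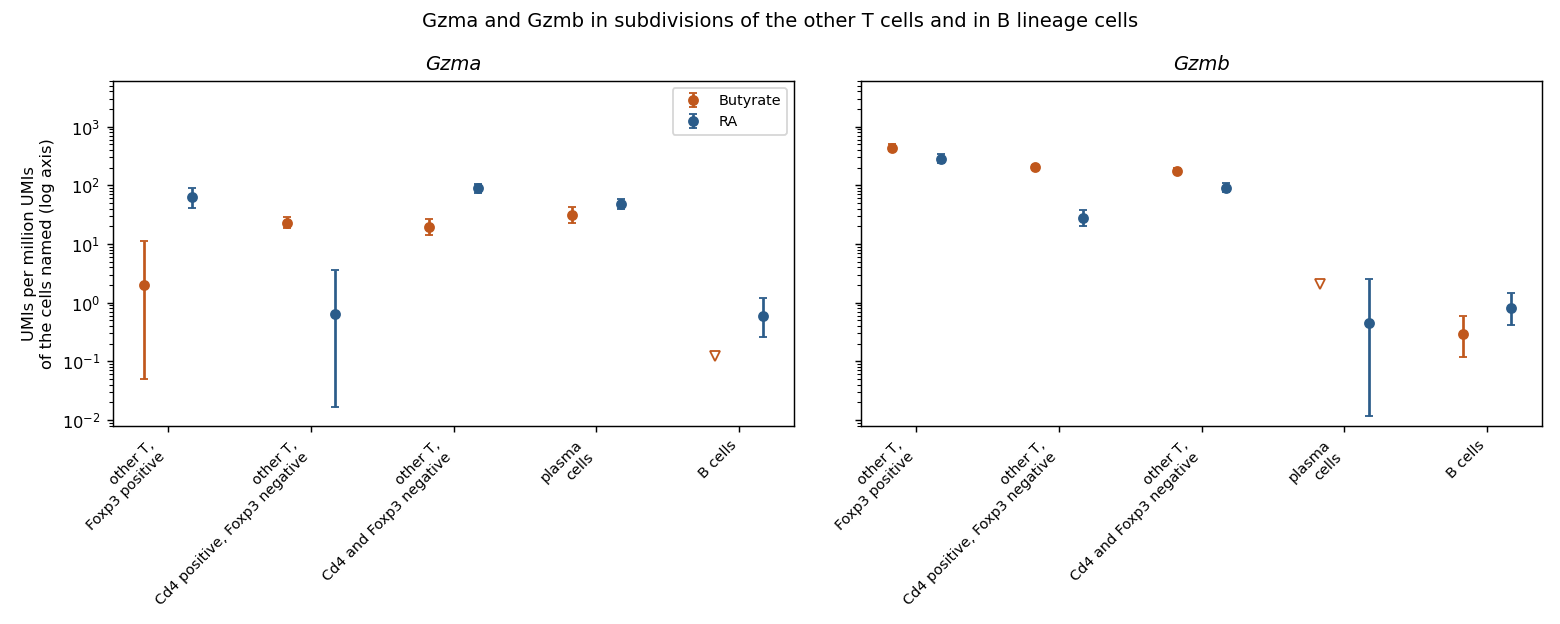
Level of Gzma (left) and Gzmb (right) in CPM (log axis) in subdivisions of the other T class, in plasma cells and in B cells, butyrate left of RA in each pair; bars are exact Poisson 95% intervals and open triangles mark the level of 3 UMIs where none was found. Gzmb sits higher in butyrate than in RA cells in the Cd4-positive, Foxp3-negative cells (204 CPM in butyrate and 27.8 CPM in RA), and plasma cells have Gzma with next to no Gzmb.

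Further genes of the granule pathway were counted from a list of 40. Of the 40, 30 in γδ T cells reached 20 UMIs, of which 0 were at least 1.5-fold higher and 7 lower in butyrate, against 9.59% higher and 11.9% lower of all genes measured. In CD8αβ cells 32 did, with 4 higher and 9 lower, against 7.43% higher and 13.2% lower of all genes. In CD8αα cells 27 did, with 1 higher and 7 lower, against 13% higher and 14.2% lower. In other T cells 33 did, with 4 higher and 4 lower, against 5.42% higher and 15.7% lower, so the part lower was near that of all genes. In the NK gate 29 did, with 5 higher and 1 lower, against 12.1% higher and 12.9% lower. Gzmc, a neighbouring granzyme, had ratios of 0.299 in γδ T, 0.263 in CD8αβ, 5.80 in other T and 2.60 in NK-gate cells, though in other T cells all 53 butyrate UMIs came from 3 cells. In CD8αα cells it had 9 UMIs in butyrate and 1 UMI in RA cells, a ratio of 5.15 with an interval from 0.714 to 226, whereas Gzmb was at 0.411 there. The chemokine gene Ccl4 had ratios of 0.383 in γδ T, 0.308 in CD8αα and 0.270 in other T cells, but 0.890 (0.784 to 1.012) in CD8αβ cells. Ccl3, another chemokine gene, was at 0.168 in CD8αβ and 0.641 in other T cells, at 0.760 (0.308 to 1.84) in γδ T cells, and had 1 UMI in butyrate and 17 UMIs in RA CD8αα cells. In the NK gate the ratios were 2.76 for Ccl4, 1.30 (0.957 to 1.78) for Ccl3 and 2.26 for Ifng. Xcl1, a further chemokine gene, was higher in CD8αβ cells, with 39 UMIs in butyrate and 2 UMIs in RA cells, a ratio of 6.96 with an interval from 1.80 to 59.5. Serpinb9 and Serpinb6b, inhibitors that shield cells from granzymes, had ratios of 1.60 and 1.86 in other T cells.

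A list of 9 genes of tissue residence was counted beside them. In CD8αβ cells 9 were measured, of which 2 were at least 1.5-fold higher and 5 lower in butyrate (all genes: 7.43% higher, 13.2% lower). In CD8αα cells 7 were measured, of which 1 was higher and 4 lower (all genes: 13% higher, 14.2% lower). Itgae, the integrin chain that binds E-cadherin of the epithelium, was at 31.1 CPM in butyrate and 124 CPM in RA CD8αβ cells (ratio 0.250), whereas Ccr7 and Tcf7, genes of naive and recirculating T cells, had ratios of 1.82 and 1.92 there. Of 8 residence genes measured in γδ T cells 0 were higher and 2 lower (all genes: 9.59% higher, 11.9% lower), in other T cells 1 of 9 was higher and 2 lower (5.42% higher, 15.7% lower), and in the NK gate 2 of 6 were higher and 1 lower (12.1% higher, 12.9% lower). The part of such cells in the granzyme differences was not tested.

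Profiles were compared over 26 points, each a class or marker gate in 1 library, so points of a library share its depth and free RNA. Against the mean profile of the 8 genes on a standardised log2(CPM + 10) scale, Pearson's r was 0.981 for Nkg7, 0.959 for Ctsw, 0.942 for Gzmb, 0.932 for Fasl, 0.926 for Gzma, 0.903 for Prf1, 0.706 for Gzmk and 0.120 for Klrg1. The genes outside the list with the highest r were Klrd1 (0.968), Klrc2 (0.966), Klrc1 (0.966), Apol7e (0.953), Sla2 (0.940), Ccl5 (0.933), Pglyrp2 (0.922) and Ms4a4b (0.921). The first 3 encode chains of NK receptors of the CD94 and NKG2 family. Klrd1 was at 580 CPM in butyrate and 523 CPM in RA NK-gate cells, and at 234 CPM in butyrate and 308 CPM in RA CD8αβ cells. Ccl5 was at 3183 CPM in butyrate and 10209 CPM in RA CD8αβ cells and at 2154 CPM in butyrate and 1165 CPM in RA NK-gate cells, the same directions as Gzma in those classes. It was picked for likeness to a mean profile that includes Gzma over these same points, so that match is partly built in. Its ratio was 0.653 in γδ T and 0.528 in CD8αα cells. In other T cells it was 1.19 (1.12 to 1.26), against 0.444 for Gzma.

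Outside the 5 classes Gzma was also found in plasma cells. Plasma cells had 45 Gzma UMIs in 28 of 81 butyrate cells (31.8 CPM) and 106 UMIs in 58 of 130 RA cells (48.3 CPM). At most 9 UMIs were found in 1 plasma cell, and Gzmb had 0 UMIs in butyrate and 1 UMI in RA plasma cells. Plasma cells were deep, with median depths of 15783 UMIs in butyrate and 16867 UMIs in RA, and thinned to 1000 UMIs 4.94% of butyrate and 4.69% of RA plasma cells had a Gzma UMI, against 0 of 4058 butyrate and 0 of 2768 RA B cells. Epithelial cells had 10 Gzma UMIs in 1 butyrate cell and 32 UMIs in 3 RA cells, 30 of them in 1 cell. Cells that met no gate held 27 Gzma and 68 Gzmb UMIs in butyrate and 175 Gzma and 230 Gzmb UMIs in RA.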

How the data were processed

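Raw UMI counts per gene and barcode, as deposited by the authors, were used with no normalization of theirs. The submitters' processing notes name Cell Ranger 6.0.1, Seurat 4.0.3 and 4.0.4 and the mm10 genome, whereas the file headers name Cell Ranger 7.1.0; whether intronic reads were counted is not given in the sources used here. The libraries held 67894477 UMIs in 9959 butyrate barcodes and 61912439 UMIs in 10140 RA barcodes.

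UMIs were summed per class and library and divided by the class total (CPM), with exact Poisson intervals. Shares have Clopper-Pearson intervals and ratios exact conditional binomial intervals, all at 95% and for counting error only. PCR, the spread of UMIs between cells and sampling of animals add error that these do not cover. This spread was large for the granzymes: 10 RA CD8αβ cells held 63.7% of the Gzma UMIs of their class. Intervals of levels and ratios are thus too narrow for a difference between sets of cells. No test was made, as each group is 1 library. Floors are 3 UMIs. To compare shares, cells were thinned to 1000 UMIs with a fixed seed; shallower cells, among them 1 RA other T and 2 RA plasma cells, were left out. No doublet caller was run; cells with at least 2 UMIs of markers of another lineage were removed as an alternative. Cells outside the classes were gated by markers. GENCODE M21 (GRCm38) held 31184 of the 31253 gene identifiers. UMIs of 3′ tags count molecules and carry no length correction. The ratio and interval code was tested on simulated class sums, drawn with counting error and no spread between cells. Python 3.11.15, numpy 2.4.6, scipy 1.17.1, pandas 2.3.3 and matplotlib 3.10.9 were used.

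The members and lists were chosen with earlier results of these data known. All 8 members are named in every class; from the pathway, residence and circulation lists (the last as single genes), up to 3 genes with the highest and 3 with the lowest ratio per class could be named, if they had 20 UMIs and an interval that excludes 1, and 8 genes by likeness of profile. Some results were left out and are not reported here. Alternatives covered the filters on barcodes, depth, gates, weighting of cells, top cells, scaling and free RNA.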

Additional observations from a re-analysis of the deposited data

Results flagged for a closer look

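Genes whose butyrate over RA ratio lay above 1 in 1 class and below 1 in another, with both counting intervals excluding 1, were marked; the differences between classes were not tested. Gzma had ratios of 0.202 in γδ T, 0.0993 in CD8αβ, 0.0837 in CD8αα and 0.444 in other T cells, against 2.16 in the NK gate. Gzmb had ratios of 0.446 in γδ T, 0.505 in CD8αβ and 0.411 in CD8αα cells, against 2.48 in other T and 1.90 in NK-gate cells. Gzmk had ratios of 0.663 in CD8αβ and 0.404 in CD8αα cells, against 10.4 in other T cells. Nkg7 had ratios of 0.819 in γδ T and 0.612 in CD8αβ cells, against 1.34 in other T cells.

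Gzma was also found in plasma cells, which enter none of the 5 classes, at 31.8 CPM in the butyrate and 48.3 CPM in the RA library, where B cells had 0 CPM in butyrate and 0.599 CPM in RA.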

How the results depend on the processing

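The ratios of the 8 summed genes kept their direction in each class under all 12 alternatives tried per class, and 36 of the 60 values stayed within the counting interval of the value reported. Thinning to 1000 UMIs gave 0.403 in γδ T, 0.352 in CD8αβ and 1.29 in other T cells. Equal weight per cell gave 0.434 in γδ T, 0.353 in CD8αβ and 1.08 in other T cells. Stricter gates gave 0.439 in γδ T, 1.29 in other T and 1.48 in NK-gate cells. Leaving out cells with markers of another lineage gave 0.423 in γδ T, 0.332 in CD8αβ, 0.370 in CD8αα and 1.25 in other T cells. Without the 10 top cells per library and class the ratios were 0.680 in γδ T, 0.567 in CD8αβ and 0.822 in CD8αα cells; this takes a larger part of the smaller RA classes. A mitochondrial limit of 10% gave 0.438 in CD8αβ and 1.97 in other T cells, and no such limit gave 0.401 in CD8αβ cells. Without Gzma in the sum, an alternative chosen after the data were seen, the ratios were 0.606 in γδ T, 0.556 in CD8αβ, 0.573 in CD8αα, 1.62 in other T and 1.10 in NK-gate cells.

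Of 373 values for single genes, 329 stayed within the counting interval, 42 moved and 2 reversed. Both were Gzma in other T cells, at 3.42 with a mitochondrial limit of 10% and 1.67 without the 10 top cells; 2 cells per library hold most of its UMIs there. Of 76 shares of positive cells, 59 lay outside the thinned interval before thinning. No paired analysis was possible because each group has 1 sample. Depth limits Klrg1, Gzmk outside the CD8 classes and Prf1, whose counts are small.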

Other observations

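Cells of the CD8αβ class carried several members at once: 121 of 275 butyrate cells (44.0%) and 65 of 108 RA cells (60.2%) had UMIs of 4 or more of the 8 genes, against 24 of 80 butyrate and 14 of 59 RA NK-gate cells. With every cell thinned to 1000 UMIs these shares were 5.09% of butyrate and 13.9% of RA CD8αβ cells, and 6.25% of butyrate and 1.69% of RA NK-gate cells. No member was detected in 634 of 881 butyrate and 310 of 480 RA other T cells. Before thinning, NK-gate cells without any member were rare, 4 in butyrate and 2 in RA. After thinning they made up 35% of butyrate and 37.3% of RA NK-gate cells, against 46.5% of butyrate and 31.5% of RA CD8αβ cells.

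CD8αβ cells made up 20.3% (18.2% to 22.5%) of butyrate and 14.5% (12.1% to 17.3%) of RA cells with Cd3e, and γδ T cells made up 9.30% (7.81% to 11.0%) of butyrate and 14.5% (12.1% to 17.3%) of RA cells with Cd3e.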
